A study of Mus musculus with 8 samples.

Results

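Amino acid transporters of the plasma membrane were followed through 10 of their genes in mouse hearts with and without a FASTKD1 transgene: Slc7a5, Slc3a2, Slc7a11, Slc7a1, Slc7a3, Slc38a1, Slc38a2, Slc6a9, Slc1a4 and Slc1a5. They were taken by name with earlier results of these data known, and all 10 are among the 13227 genes of the count files. Every heart came from a male FVB/N mouse aged 3 months per the labels, and FVB/N is an inbred strain in which transgenic lines are often made. There were 4 hearts without the transgene (NTG, lettered A, B, D, E) and 4 with it (TG, lettered A, B, C, E). FASTKD1 binds RNA in mitochondria. Overexpression is cardiac-specific by the title of the series, while the transgene's promoter and number of founder lines are details not given in the sources used here. Letters name hearts within a group, and pairing across the groups is not stated. Each library was treated as 1 animal, so p-values measure the spread between these libraries.

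The libraries held 44584359 to 55769859 counts (exact permutation test of the totals, two-sided, p = 0.914). Fastkd1 itself had 26.3 to 192 CPM in non-transgenic and 8845 to 11520 CPM in transgenic hearts, where CPM is the count scaled by the TMM-adjusted library total. The library labelled NTG D held the 192 CPM, and it had 0 counts over 4 Y-linked genes where the other 7 libraries had 10372 to 15914, against its label of male. Results that move without this library are given both ways. The tissue is whole heart, so fewer cells of a type and less RNA per cell cannot be told apart.

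Cells take up amino acids through families of carriers with overlapping substrates. The SLC7 light chains that exchange large neutral amino acids or cystine reach the membrane only when bound to the SLC3A2 heavy chain. SLC38A1 and SLC38A2 use the sodium gradient to concentrate small neutral amino acids, while SLC1A4 and SLC1A5 exchange such amino acids. SLC7A1 and SLC7A3 carry cationic amino acids such as arginine. Several of these genes are known targets of ATF4, the transcription factor of the amino acid and integrated stress responses. In heart muscle, uptake feeds protein synthesis, glutathione and anaplerosis.

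In transgenic hearts 6 of the 10 genes rose and 0 fell: Slc7a3, Slc7a5, Slc6a9, Slc7a11, Slc38a1 and Slc3a2. The test was edgeR's quasi-likelihood test with a Benjamini-Hochberg adjustment over all 13226 tested genes and a threshold of 0.05. Of all tested genes, 1.01% rose and 0.242% fell by the same rule. The 10 were chosen with earlier results of these data known, so shares over all genes describe the list and do not test it. The 4 genes that did not pass were Slc1a4, Slc7a1, Slc38a2 and Slc1a5. The median log2 fold change of the 10 was 1.64, beside 0.01 over all tested genes. In 6 of the 10 every transgenic heart lay above every non-transgenic heart, and 4.58% of all tested genes were separated in that way. DESeq2 counted 7 of the 10 that rose and 0 that fell, beside 1.88% and 1.2% of all genes. Limma-voom counted 6 and 0, beside 1.02% and 0.242%. By edgeR, 7 of the 10 had an unadjusted p under 0.05, as had 10.7% of all genes. Without the library labelled NTG D, 7 of the 10 and 1.04% of all genes rose.

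**Figure D1:**
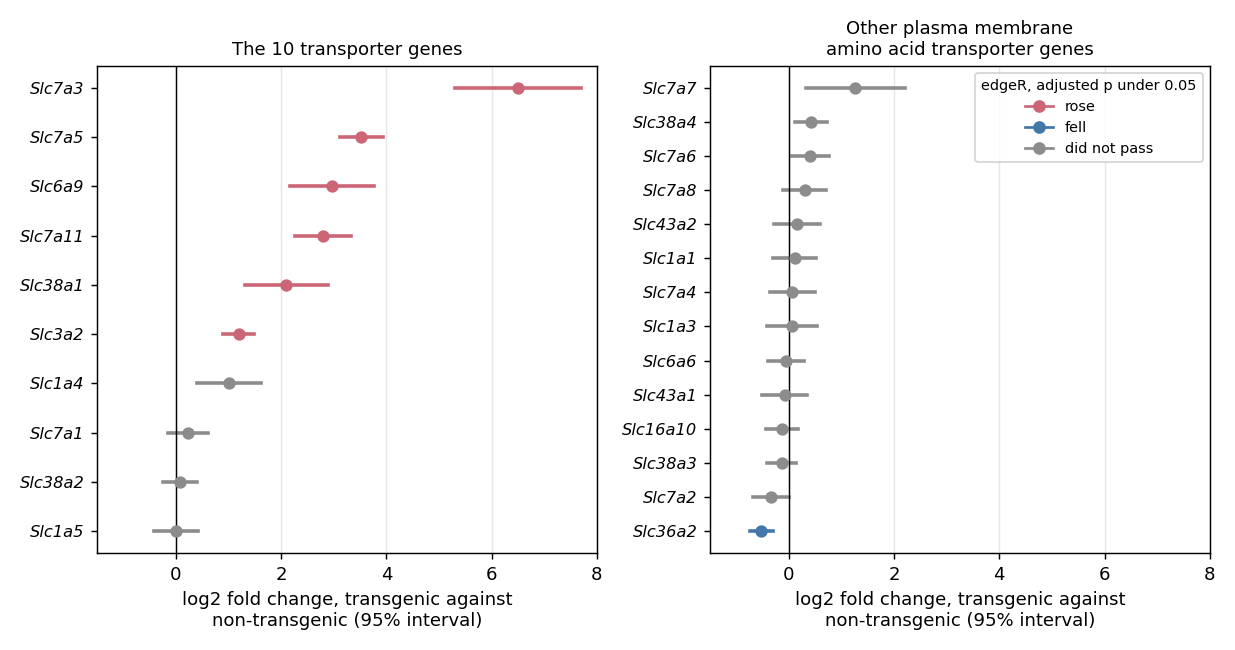
Log2 fold change of transgenic against non-transgenic hearts (x axis) with its 95% interval, for the 10 genes on the left and 14 other plasma membrane amino acid transporter genes on the right; colour gives the edgeR call. The 10 genes run from 0.01 to 6.50 on the log2 scale, while the other transporters run from -0.52 to 1.26 and only Slc36a2 among them passed.

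The order of the levels was partly different in the 2 groups. Per kilobase of annotated exons (RPKM), Slc38a2 was highest in non-transgenic hearts at 36.8 ± 5.15, followed by Slc3a2 at 9.28 ± 1.51 and Slc7a1 at 6.39 ± 1.42 (SD, n = 4). Slc1a4 and Slc1a5 came next at 2.61 ± 1.16 and 2.24 ± 0.659 RPKM, a pair that did not differ beyond its spread. Slc7a5 stood at 0.994 ± 0.195 RPKM, and Slc38a1, Slc6a9, Slc7a11 and Slc7a3 lay between 0.00778 and 0.345 RPKM. In transgenic hearts Slc38a2 was still highest, at 38.8 ± 6.36 RPKM, and Slc3a2 next at 21.2 ± 1.98, but Slc7a5 now ranked above Slc7a1, at 11.5 ± 2.01 against 7.47 ± 1.24 RPKM. Exon lengths are those of all annotated isoforms together, which lowers the RPKM of genes with much annotated exon sequence such as Slc38a1 (17236 bases) and Slc7a11 (13922 bases). Slc38a2 made up 62.5% ± 6.15 of the summed RPKM of the 10 genes in non-transgenic hearts and 42.9% ± 1.41 in transgenic hearts.

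**Figure D2:**
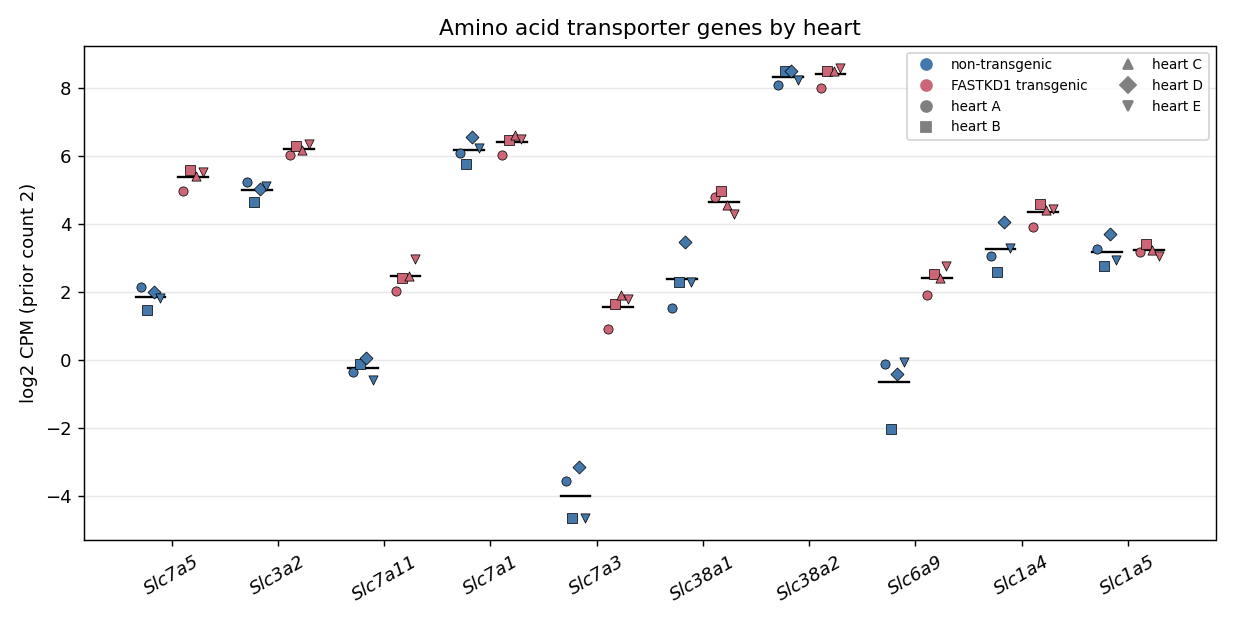
Log2 CPM (y axis, prior count of 2) of the 10 genes in each heart; symbols mark the heart letter, colours the group, and bars the group mean. The groups are apart for Slc7a5, Slc3a2, Slc7a11, Slc7a3, Slc38a1 and Slc6a9, and they overlap for Slc7a1, Slc38a2, Slc1a4 and Slc1a5.

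Slc7a5 encodes LAT1, the light chain that exchanges glutamine for leucine and other large neutral amino acids (ENSMUSG00000040010; GRCm38 chromosome 8, 121881150 to 121907694, minus strand). It had 4.42, 2.74, 4.02 and 3.56 CPM in NTG hearts A, B, D and E, and 31.9, 48.5, 43.2 and 46.7 CPM in TG hearts A, B, C and E. The lowest transgenic heart, A, was still far above the highest non-transgenic heart. EdgeR gave a log2 fold change of 3.53 (SE 0.18, adjusted p = 4.48e-06), an 11.5-fold difference, and Slc7a5 ranked 17 by fold change among all tested genes.

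Slc3a2 encodes the heavy chain, also called CD98hc, which carries LAT1, the cystine exchanger and other light chains to the membrane (ENSMUSG00000010095; chromosome 19, 8706882 to 8723369, minus strand). Its values were 38.0, 25.4, 32.8 and 34.8 CPM in NTG hearts A, B, D and E, against 65.9, 78.8, 73.0 and 81.6 CPM in TG hearts A, B, C and E. The groups did not overlap, and the difference was smaller than for its partner: 1.19 on the log2 scale (SE 0.13, edgeR adjusted p = 0.000779), or 2.28-fold.

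Setting the heavy chain beside its light chains per length showed a change in their makeup. Known light chain genes in the files were 5: Slc7a5, Slc7a6 and Slc7a7 (which exchange cationic for neutral amino acids), Slc7a8 (LAT2) and Slc7a11. Their summed level was 5.02 ± 0.601 RPKM without the transgene and 18.2 ± 1.12 RPKM with it, beside 9.28 ± 1.51 and 21.2 ± 1.98 RPKM of Slc3a2 (SD, n = 4 each). Light chain RPKM per Slc3a2 RPKM was 0.445 to 0.632 in non-transgenic and 0.827 to 0.905 in transgenic hearts, with no overlap. Slc7a6 held the largest share of light chain RPKM in non-transgenic hearts, 49.7% ± 4.24, and Slc7a5 19.8% ± 3.58. In transgenic hearts the order was turned, at 62.8% ± 8.07 for Slc7a5 and 18.1% ± 3.01 for Slc7a6. These sums were chosen after the values had been seen and are given as a description, without a test.

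**Figure D3:**
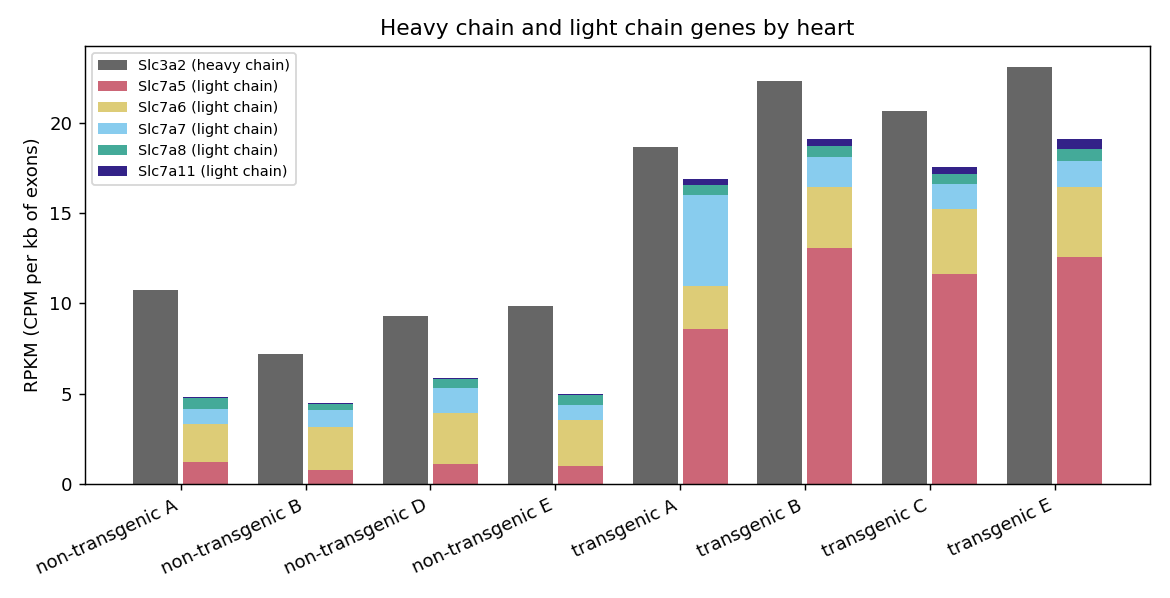
RPKM (y axis) of Slc3a2 and, stacked, of 5 light chain genes in each of the 8 hearts. The light chain stack is 4.47 to 5.87 RPKM in non-transgenic and 16.9 to 19.1 RPKM in transgenic hearts, most of it Slc7a5 in the transgenic ones; TG heart A also carries 5.08 RPKM of Slc7a7.

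Slc7a11 encodes xCT, the light chain that brings in cystine, the precursor of cysteine for glutathione, in exchange for glutamate (ENSMUSG00000027737; chromosome 3, 49892526 to 50443614, minus strand). It stood at 0.748, 0.896, 1.01 and 0.628 CPM in NTG hearts A, B, D and E, from 33 to 56 counts each. TG hearts A, B, C and E had 4.11, 5.30, 5.55 and 7.83 CPM, all above the non-transgenic hearts, with TG heart E highest. EdgeR gave a log2 fold change of 2.79 (SE 0.24, adjusted p = 0.000147). Its level stayed low next to Slc7a5: it made up 1.18% ± 0.222 of light chain RPKM in non-transgenic and 2.24% ± 0.515 in transgenic hearts.

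RefSeq promoter windows (GRCm38.p6, 250 bases before to 50 after a start site) were at hand for 6 of the 10 genes, in 9 windows. The motifs searched, on both strands, were 3: TGATGNAA, the element bound by C/EBP and ATF factors together; TGACNNNGC, the core of the antioxidant response element of NRF2; and CACGTG, the E-box of MYC. TGATGNAA and TGACNNNGC share the letters TGA, and no matches of these overlapped in the 9 windows. TGATGNAA occurred in the windows of Slc7a11 and Slc1a4, and in 3.97% of all 32851 windows. TGACNNNGC occurred in windows of Slc38a2, Slc6a9 and Slc7a1, against 12.4% of all windows. CACGTG occurred in 0 of the 9, against 7.15% of all windows. The stretches below run from 110 bases before to 10 bases after the start, 5′ to 3′, with motif matches in capitals. Of the genes shown, Slc7a11 (TGATGNAA) and Slc3a2 (no match) rose, while Slc1a4 (TGATGNAA) and Slc38a2 (TGACNNNGC) did not pass. Not shown are Slc6a9, which rose, and Slc7a1, which did not pass, both with TGACNNNGC. Slc7a5, Slc7a3 and Slc38a1, which rose, and Slc1a5, which did not pass, had no window. The relation of matches to calls was not tested.
Slc7a11 (minus strand, chr3:50443604-50443723): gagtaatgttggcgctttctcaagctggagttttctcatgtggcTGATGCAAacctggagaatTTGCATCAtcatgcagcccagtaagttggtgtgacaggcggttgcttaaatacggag
Slc1a4 (minus strand, chr11:20332704-20332823): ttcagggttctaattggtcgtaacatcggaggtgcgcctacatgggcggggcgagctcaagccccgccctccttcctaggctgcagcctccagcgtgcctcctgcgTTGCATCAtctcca
Slc3a2 (minus strand, chr19:8713888-8714007): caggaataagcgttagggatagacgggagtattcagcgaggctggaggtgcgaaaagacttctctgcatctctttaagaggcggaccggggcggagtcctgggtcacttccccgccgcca
Slc38a2 (minus strand, chr15:96699719-96699838): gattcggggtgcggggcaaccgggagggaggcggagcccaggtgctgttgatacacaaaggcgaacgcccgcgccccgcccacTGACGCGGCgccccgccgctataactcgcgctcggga

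Slc7a11 held the element as a facing pair: TGATGCAA at -66 to -59 and its reverse complement TTGCATCA at -47 to -40, counted from the start site. In Slc1a4 the same 8 letters, TTGCATCA, lay across the start site, from -4 to 4. The Slc3a2 window held none of the 3 motifs. A match is a description of letters and not of binding, and enhancers outside these windows were not searched.

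The cationic carriers behaved unequally. Slc7a1 encodes CAT1, the main arginine and lysine carrier of most tissues (ENSMUSG00000041313; chromosome 5, 148327410 to 148399904, minus strand). Its values were 69.1, 55.1, 94.4 and 76.0 CPM in NTG hearts A, B, D and E, and 65.7, 88.9, 98.9 and 91.2 CPM in TG hearts A, B, C and E. The groups overlapped, with the lowest transgenic heart below 3 non-transgenic hearts, and the log2 difference was 0.23 with a 95% interval of -0.16 to 0.61 (edgeR adjusted p = 0.732).

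Slc7a3 encodes CAT3, a cationic carrier best known from brain (ENSMUSG00000031297; chromosome X, 101079210 to 101086020, minus strand). It was close to absent in non-transgenic hearts, with 2, 0, 4 and 0 counts in A, B, D and E. TG hearts A, B, C and E had 82, 157, 221 and 172 counts, or 1.86, 3.14, 3.74 and 3.48 CPM. All 13227 listed genes had counts above 0 in every transgenic library, against 13220 to 13224 in the non-transgenic libraries. Slc7a3 could meet a filter on expression only through the transgenic hearts, so its change and p-value carry that selection. The fitted change was 6.50 on the log2 scale (SE 0.54, edgeR adjusted p = 0.000129), and it depends on how counts of 0 are handled. It was 7.46 without NTG heart D and 6.06 without NTG heart E. Pooled over each group, 632 against 6 counts were 99.3 times as many, with a 95% interval from 45.4 to 271.5 that covers counting error only. Even so, Slc7a3 remained the lesser of the pair per length: 7.95% to 10.4% of the summed Slc7a1 and Slc7a3 RPKM in transgenic hearts, and 0 to 0.233% in non-transgenic hearts.

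The SLC38 pair belongs to system A, which takes up glutamine, alanine and serine with sodium. Slc38a1, the gene of SNAT1 (ENSMUSG00000023169; chromosome 15, 96571418 to 96642913, minus strand), had 2.86, 4.87, 11.1 and 4.95 CPM in NTG hearts A, B, D and E. It had 27.8, 31.3, 23.8 and 19.6 CPM in TG hearts A, B, C and E. The groups did not overlap, although NTG heart D was above the others of its group. The difference was 4.28-fold, with a 95% interval of 1.31 to 2.88 on the log2 scale (SE 0.35, edgeR adjusted p = 0.0151), and 2.59 on that scale (SE 0.24, adjusted p = 0.000604) without heart D. The call was lost without NTG heart B (adjusted p = 0.0572), without NTG heart E (0.0719), without TG heart B (0.0685) and with library totals only (0.0503).

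Slc38a2 encodes SNAT2, the system A carrier known to be induced by amino acid shortage (ENSMUSG00000022462; chromosome 15, 96687392 to 96699730, minus strand). It was the most abundant of the 10 genes, at 273, 361, 366 and 301 CPM in NTG hearts A, B, D and E, and 260.1, 365, 364 and 384 CPM in TG hearts A, B, C and E. The groups overlapped over most of their range. The log2 difference was 0.08 with a 95% interval of -0.25 to 0.40 (edgeR adjusted p = 0.907), so a doubling lies outside the interval. Slc38a1 went from 0.898% ± 0.444 to 3.80% ± 1.16 of the summed RPKM of the pair (SD, n = 4 each).

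Slc6a9 encodes GLYT1, which takes up glycine with sodium and chloride (ENSMUSG00000028542; chromosome 4, 117834506 to 117875198, plus strand). It had 0.884, 0.205, 0.725 and 0.933 CPM in NTG hearts A, B, D and E, from 8 to 49 counts each, and 3.77, 5.82, 5.33 and 6.80 CPM in TG hearts A, B, C and E. All transgenic hearts were above all non-transgenic hearts, and NTG heart B was lowest. With 8 counts in NTG heart B, the non-transgenic hearts alone did not meet the expression filter of the main fit. The change and p-value of Slc6a9 therefore carry that selection. EdgeR gave a log2 fold change of 2.96 (SE 0.36, adjusted p = 0.00174). Exons of Slc6a9 overlap those of B4galt2, Ccdc24 and Gm17114 on the opposite strand, with strand use in counting not given in the sources used here. Ccdc24 and Gm17114 are not in the count files, so their levels could not be checked. B4galt2 differed by 0.08 on the log2 scale (SE 0.11, edgeR adjusted p = 0.860), and its direction turned under 1 alternative.

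The SLC1 pair exchanges alanine, serine, cysteine and, for ASCT2, glutamine. Slc1a4, the gene of ASCT1 (ENSMUSG00000020142; chromosome 11, 20302180 to 20332713, minus strand), had 8.41, 6.07, 16.6 and 9.94 CPM in NTG hearts A, B, D and E. It had 15.2, 24.2, 21.2 and 22.1 CPM in TG hearts A, B, C and E, so that only NTG D and TG A overlapped. The log2 difference was 1.01 (SE 0.27), with a 95% interval of 0.40 to 1.62, and it did not pass (edgeR adjusted p = 0.163). Without NTG heart D it was 1.33 (SE 0.20) and passed (adjusted p = 0.0124), as it did with DESeq2 (0.0109).

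Slc1a5 encodes ASCT2, the glutamine exchanger often raised in tumours (ENSMUSG00000001918; chromosome 7, 16781340 to 16798274, plus strand). Its values were 9.72, 6.86, 13.1 and 7.73 CPM in NTG hearts A, B, D and E, and 9.15, 10.6, 9.49 and 8.34 CPM in TG hearts A, B, C and E. Every transgenic heart lay within the non-transgenic range. The log2 difference was 0.01 with a 95% interval of -0.41 to 0.43 (edgeR adjusted p = 0.995), and its sign turned when single hearts were left out. Slc1a4 made up 52.9% ± 5.46 of the summed RPKM of the pair without the transgene and 69.7% ± 4.21 with it (SD, n = 4 each).

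Within each group a single heart was at the edge for many of the genes. TG heart A was the lowest of its group for 8 of the 10, and NTG heart D was the highest of its group for 7. The matching shares over all tested genes were not counted, so these positions are not particular to the transporters by this description. Mean log2 CPM over the 10 genes was 4.19 in TG heart A and 4.58 to 4.65 in the other transgenic hearts; it was 2.99 in NTG heart D and 2.14 to 2.55 in the other non-transgenic hearts. These 2 hearts, TG A low and NTG D high for the transporters, had the highest summed level of 4 atrial marker genes (Nppa, Myl4, Myl7, Sln) in their groups. That level was 2988 CPM in TG A and 572 CPM in NTG D, against 16.2 to 241 CPM elsewhere. Without both hearts, 7 of the 10 genes and 1.29% of all genes rose, Slc1a4 among the 7 at 1.46 (SE 0.18, edgeR adjusted p = 0.00352). Slc7a5, Slc3a2, Slc7a3, Slc7a11 and Slc6a9 passed with any 1 heart left out. The part of atrial tissue in the differences of the 10 genes was not tested.

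**Figure D4:**
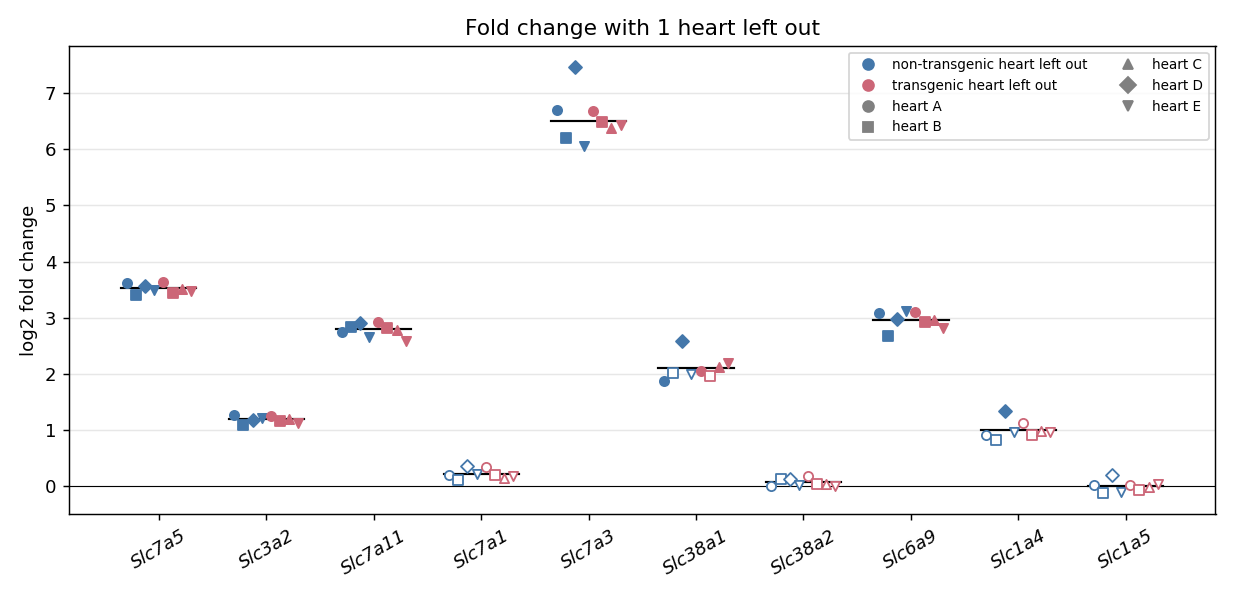
Log2 fold change (y axis) of the 10 genes with each heart left out in turn; black bars give the value with all 8 hearts, filled symbols an adjusted p under 0.05, open symbols the rest. Slc7a5 stays between 3.41 and 3.64, Slc38a1 moves between 1.87 and 2.59 and loses its call in 3 of 8 sets, and Slc1a4 passes in 1 of the 8 sets, without NTG heart D.

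Marker genes of the cells a heart sample can hold gave the following summed levels. The summed CPM of the 6 cardiomyocyte markers was 43180 to 44270 in TG and 51470 to 58010 in NTG, and that of the 6 endothelial markers 1019 to 1075 and 1129 to 1372. These sums rest on some of their genes. Ryr2 differed by -0.01 on the log2 scale, with a sign that turned under 2 alternatives, while the other 5 cardiomyocyte markers ran from -0.27 to -0.57. Among endothelial markers Fabp4 was at 550.4 ± 141 and 382 ± 18.9 CPM in NTG and TG (SD, n = 4 each; log2 difference -0.53), and the other 5 ran from -0.13 to 0.09 on the log2 scale. Neither list had a gene past the threshold in the main edgeR fit, though Pln fell with library totals only (-0.47, SE 0.09, edgeR adjusted p = 0.0326). An unadjusted p under 0.05 was met by 5 of the 6 cardiomyocyte and 1 of the 6 endothelial markers, against 10.7% of all genes. DESeq2 counted Myh6, Tnnt2, Pln and Fabp4 as fallen, against 1.2% of all genes. The groups overlapped for the 6 macrophage markers (129 to 185 CPM in NTG, 131 to 169 CPM in TG), the 6 fibroblast markers (1038 to 1552 and 953 to 1429), the 5 mural markers (624 to 1038 and 762 to 1012), the 3 erythroid markers (343 to 770.2 and 289 to 399.5), the 3 mesothelial markers (15.1 to 65.8 and 21.1 to 95.3), the 3 adipocyte markers (0.723 to 17.5 and 1.89 to 12.0) and 2 of 4 glial markers (4.35 to 7.53 and 4.50 to 6.79). No gene of these lists or of the atrial list passed in the main edgeR fit. DESeq2 counted the erythroid gene Hba-a1, which has a near-identical copy, as fallen. It also fell with edgeR without NTG heart E (-0.87, SE 0.14, adjusted p = 0.0185). The atrial gene Sln rose with a replicate block on title letters (6.06, SE 0.91, edgeR adjusted p = 0.0266). That block compares only hearts with letters A, B and E, which both groups have. The mural marker Acta2 was at 108 to 173 CPM in NTG and 210.3 to 375 CPM in TG, with no overlap (log2 difference 1.03, SE 0.21, edgeR adjusted p = 0.0505). It rose in 7 of 18 alternatives. By adjusted p they were DESeq2 (0.000128) and limma-voom (0.0441) and, with edgeR, library totals only (0.0441) and a filter of 5 CPM in 4 libraries (0.0428). With edgeR it also rose under the replicate block (0.0391), without NTG heart B (0.0273) and without TG heart A (0.0458). None of the tested markers was at 0 in all libraries. Of 5 genes listed as lymphocyte markers only Ptprc was in the files, at 11.5 to 18.1 CPM in non-transgenic and 8.08 to 11.1 CPM in transgenic hearts. Its groups did not overlap, and it did not pass (edgeR adjusted p = 0.2825). The part of cell makeup in the transporter differences was not tested.

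Of the 32 other plasma membrane amino acid transporter genes listed, 14 were tested, and 0 rose and 1 fell (median log2 fold change 0.07; 4 with an unadjusted p under 0.05, against 10.7% of all genes; DESeq2 and limma-voom also 0 and 1). The other 18 were not found by symbol in the count files and were not analysed here. Every gene in the files had counts above 0 in all transgenic libraries, so no gene at 0 in a transgenic heart is among those tested. Slc36a2, a proton-coupled carrier of glycine, alanine and proline, went from 37.8 ± 2.96 to 26.3 ± 2.43 CPM (means ± SD of 4 hearts), a log2 fold change of -0.52 (SE 0.10, adjusted p = 0.0306 by edgeR). Its call was lost in 7 of 18 alternatives, among them without NTG heart A (adjusted p = 0.104), TG heart B (0.141), TG heart C (0.0844) or TG heart E (0.104), and with library totals only (0.0804). Slc7a7, Slc38a4 and Slc7a6 had log2 differences of 1.26 (SE 0.42), 0.41 (SE 0.14) and 0.41 (SE 0.16), with edgeR adjusted p of 0.297, 0.295 and 0.372. Slc7a7 had 16.8 CPM in TG heart A, 4.57 to 5.52 CPM in TG B, C and E, 4.58 CPM in NTG heart D and 2.77 to 3.00 CPM in NTG A, B and E. Without TG A and NTG D, Slc7a7 and Slc7a6 passed, at 0.79 (SE 0.15, edgeR adjusted p = 0.0314) and 0.61 (SE 0.12, 0.0433).

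No gene of the lysosomal and mitochondrial amino acid carrier lists passed. The counts of unadjusted p under 0.05 in these lists stand against 10.7% of all genes. Of 9 tested lysosomal amino acid transporters, 0 rose and 0 fell (median 0.16; 2 with an unadjusted p under 0.05), with Slc36a4 at 0.27, Slc38a7 at 0.26, Slc15a4 at 0.28 and the cystine exporter gene Ctns at 0.16 on the log2 scale (edgeR adjusted p 0.286 to 0.639). Of 10 tested mitochondrial amino acid carriers, likewise 0 (median 0.01; 0 with an unadjusted p under 0.05), with the aspartate-glutamate carrier gene Slc25a13 at -0.26, the serine carrier gene Sfxn1 at 0.25, Slc25a44 for branched-chain amino acids at 0.19 and Sfxn3 at 0.13 (0.515 to 0.802). DESeq2 and limma-voom also counted 0 in both lists.

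Plasma membrane transporters of other substrates gave 0 calls among 22 tested (median -0.06; 5 with an unadjusted p under 0.05, against 10.7% of all genes; DESeq2 counted 1 that rose, against 1.88%, and limma-voom 0). The glucose carrier gene Slc2a1 was at 0.50 (SE 0.13, edgeR adjusted p = 0.140) and passed with DESeq2 (0.0304) and without NTG heart D (0.0128). The sodium-calcium exchanger gene Slc8a1 was at 0.27, the nucleoside carrier gene Slc29a1 at -0.22 and the sodium-glucose carrier gene Slc5a1 at -0.92 on the log2 scale (edgeR adjusted p 0.297 to 0.420). Over all 227 tested genes with an Slc symbol, a count made after the values were seen, 10 rose and 1 fell. Among all tested genes the shares were 1.01% and 0.242%. Of the 10 Slc genes that rose, 6 belong to the transporters followed here. The other 4 were Slc24a2 (2.07, SE 0.18), a sodium-calcium-potassium exchanger, the thiamine carrier gene Slc19a2 (0.90, SE 0.11), and Slc25a33 (0.81, SE 0.11) and Slc25a39 (0.69, SE 0.14) of the mitochondrial inner membrane, for nucleotides and glutathione. Of 18 alternatives, Slc24a2 lost its call in 0, Slc19a2 and Slc25a33 in 1 each and Slc25a39 in 9.

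Among 5 transcription factor genes known to act on these transporters, 3 rose and 0 fell, against 1.01% and 0.242% of all tested genes. This list was also chosen with earlier results known, and the part of these factors in the transporter differences was not tested. Atf4 went from 65.9 ± 4.57 to 161 ± 23.8 CPM, Ddit3, which encodes CHOP, from 17.8 ± 2.52 to 33.7 ± 2.47 CPM, and Myc from 1.56 ± 0.329 to 6.99 ± 1.40 CPM (means ± SD of 4 hearts; adjusted p = 0.000265, 0.00233 and 0.000333 by edgeR). Cebpb and Nfe2l2, the gene of NRF2, had log2 differences of 0.47 (95% interval -0.13 to 1.06) and 0.09 (-0.15 to 0.34) and did not pass (edgeR adjusted p = 0.612 and 0.840). Of 8 genes that regulate the abundance of transporters at the membrane, 0 passed, and DESeq2 and limma-voom also counted 0. By edgeR, 2 of the 8 had an unadjusted p under 0.05, against 10.7% of all genes. The kinase gene Sgk1 was at -0.30, Laptm4b, which recruits LAT1 and CD98hc to lysosomes, at -0.31, Cd44, whose protein stabilises xCT, at 0.30, and the ubiquitin ligase gene Nedd4 at -0.03 on the log2 scale (edgeR adjusted p 0.304 to 0.934). The direction of Nedd4 turned with library totals only and without NTG heart B.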

How the data were processed

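Whole-heart RNA-seq libraries were deposited by the authors as raw whole-number counts per Ensembl gene, 1 file per heart. Tools named per the submitters' processing notes are cutadapt 1.15 and TopHat2, and the build is GRCm38 (mm10). For the counter, its multi-mapping and strand settings and its annotation, the entry is: not given in the sources used here. Symbols, positions and exon lengths came from GENCODE M21, which matched 13215 of 13227 identifiers.

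Counts were analysed with edgeR 4.0.16 in R 4.3.3: filterByExpr (13226 genes kept), TMM scaling, and a two-sided glmQLFTest of TG against NTG after glmQLFit, Benjamini-Hochberg adjustment over all genes, threshold 0.05. SE was taken from the log2 fold change and its F (change over root F). Every adjusted p is edgeR's unless DESeq2 1.42.0 or limma 3.58.1 is named. RPKM is TMM-scaled CPM per kilobase of merged exons. Alternatives were other scalings, tools, filters and thresholds, leaving out hearts, and a replicate block on title letters. In that block NTG D and TG C, whose letters occur in a single group, add nothing to the group difference.

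The 10 genes and all lists were chosen with earlier results of these data known. Named genes are the 10, and from each other list those past the threshold plus those with the smallest p up to 4; Nfe2l2, B4galt2, Slc24a2, Slc19a2, Slc25a33 and Slc25a39 were named after their values were seen, as were the marker genes given with values.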

Additional observations from a re-analysis of the deposited data

Results flagged for a closer look

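In 88 groups of 4 hearts (named genes, log2 CPM, both genotypes), 8 had a highest or lowest heart far from the rest by Dixon's criterion, which chance meets in about 1 group in 20. Among the 10 transporters it was met once, by Slc38a2 in transgenic heart A, low at 8.02. Slc7a7 met it in both groups, high at 4.08 in transgenic heart A and at 2.21 in non-transgenic heart D, the hearts with the highest atrial marker level in their groups. Transgenic heart A was also apart for Slc36a4, at 4.12. Non-transgenic heart D was apart for Slc2a1, at 3.57, and for Fastkd1, at 7.58. Slc15a4 was low in non-transgenic heart B, at 3.00, and Slc29a1 was apart in transgenic heart E, at 5.42.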

How the results depend on the processing

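In all, 18 alternatives were run for each count and, with the exception of 6 genes, each gene given with its own log2 difference, those for genes outside the 10 added after seeing the data. Of the 10 transporters 6 rose, and 5 to 7 with 1 heart left out. The number was 3 with a filter of 5 CPM in 4 libraries, which left Slc7a3, Slc7a11, Slc6a9, Slc7a7, Slc5a1 and Cebpb untested. Of the 3, Slc7a5 and Slc38a1 met that filter only with the transgenic hearts, so their calls under it carry that selection. Genes that rose among all tested numbered 133 (103 to 168 with 1 heart left out, 249 with DESeq2). Genes that fell numbered 32: 9 to 72 with 1 heart left out (10 without non-transgenic A, 50 without non-transgenic B, 72 without non-transgenic D, 9 without transgenic B, 14 without transgenic C), 159 with DESeq2, 106 without non-transgenic D and transgenic A, 9 at a threshold of 0.01 and 21 with the replicate block. Other plasma membrane transporters that fell numbered 1, and 0 to 1 with 1 heart left out; 0 fell with library totals only, the replicate block or a threshold of 0.01, and 2 rose without non-transgenic D and transgenic A. Transporters of other substrates that passed numbered 0, and 0 to 1 with 1 heart left out; 1 passed with DESeq2 or without those 2 hearts. The cause of these moves was not tested. Slc1a5 turned to -0.0049 with upper quartile scaling and to -0.114, -0.0923, -0.0712 and -0.0115 without non-transgenic B, non-transgenic E, transgenic B and transgenic C, in a range of -0.114 to 0.206 with 1 heart left out. Nedd4 turned to 0.0418 with library totals only and 0.0176 without non-transgenic B (range -0.0731 to 0.0176 with 1 heart left out), Ryr2 to 0.0646 with library totals only and 0.0478 without non-transgenic A (range -0.0542 to 0.0478), and B4galt2 to -0.0013 without non-transgenic D and transgenic A. Deviations of same-letter hearts correlated at r = 0.297 (A), -0.0850 (B) and 0.360 (E) across genes, and those of different-letter hearts at -0.438 to 0.448. These values do not settle whether the letters pair hearts. The letters were not taken as pairs because the labels do not state it. The replicate block rests on letters A, B and E, since D and C each occur in 1 group only. Non-transgenic D and transgenic C therefore add nothing to its group difference. With the replicate block 7 of the 10 rose, Slc1a4 among them (1.33, edgeR adjusted p = 0.0427). Under that block Slc36a2 (0.130), Slc19a2 (0.0504), Slc25a33 (0.0638) and Slc25a39 (0.240) lost their calls, while the markers Acta2 (0.0391) and Sln (0.0266) passed. Depth limits Slc7a3 most, at 6 counts over the 4 non-transgenic libraries.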
